A study of Homo sapiens with 4 samples.

Results

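The genes described here copy the genome or divide the cell. They are 47 genes, 23 of DNA replication and 24 of mitosis, out of 30926 gene symbols on the array. Members were chosen by name: every probe whose gene symbol in the deposited signal table was on a list of 48 symbols, where CDC2 is an older name of CDK1, and this gave 75 probes. RNA was taken from the established breast cancer line MDA-MB-231, which is of human origin, in 2 groups, each measured on 2 Illumina HumanHT-12 v4 arrays. Cells of the shT7#1 group carried a short hairpin RNA against TRPM7, a membrane protein that joins a cation channel to a protein kinase. Cells of the shCntrl group carried a scrambled hairpin. All cells were transduced, and all grew in DMEM with fetal bovine serum. A single hairpin sequence against TRPM7 was used, so an effect of that sequence on other transcripts and an effect of TRPM7 cannot be told apart. Whether the 2 arrays of a group stand for separate cultures is not given in the labels, so the spread behind each p-value may be technical.

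Replication and mitosis genes are switched on in waves. E2F factors turn on replication genes as cells leave G1, and the MCM helicase is loaded on origins by CDC6 and CDT1 before it is fired in S phase. A later wave, driven by the MuvB complex with B-MYB and FOXM1, turns on cyclin B, the mitotic kinases, the spindle motors and the kinetochore genes. Both waves are high in dividing tumour cells, so their transcripts are widely used to read how much a cell population is cycling. In bulk RNA, a smaller share of cycling cells and less transcript per cycling cell cannot be told apart. Cell growth, cell number and DNA content were not analysed here.

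Between 19492 and 20261 of the 47323 probes were above background on each array, and replicate arrays correlated at 0.993 and 0.994 across the 14731 genes tested. The TRPM7 probe was not above background on any array, at 4.47 and 4.56 log2 units in shT7#1 and 4.60 and 4.52 in shCntrl, so the knockdown could not be checked from these arrays. Of genes listed for a mesenchymal-like breast line, VIM, CD44, CDH2, KRT8 and KRT18 were all above background, while CDH1, ESR1, PGR and KRT5 were not. KRT8 and KRT18 are epithelial keratins, so they do not mark a mesenchymal state. Of the leukocyte markers 1 of 6 was measured (CD14), of the endothelial markers 1 of 4 (PECAM1) and of the fibroblast markers 3 of 5. The summed level of the fibroblast markers was 7.55 and 7.67 log2 units in shT7#1 and 7.86 and 8.04 in shCntrl. The 3 did not change alike, with shT7#1 minus shCntrl at -0.72 for COL1A2, -0.20 for PDGFRB and -0.002 for LUM. The part of this level in the values below was not tested.

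No replication gene and no mitosis gene passed the test in shT7#1 against shCntrl. Of 46 members tested, limma called 0 higher and 0 lower (p-values adjusted over all 14731 genes tested, threshold 0.05), while it called 6.48% of all genes, 2.93% higher and 3.55% lower. At an unadjusted limma p under 0.05 the count was 11 of 46 members, 23.9%, where 25.9% of all genes lay under that value. All 46 were above background on all 4 arrays. The remaining member, GINS1, a subunit of the replicative helicase, was above background on 1 shCntrl array only and was not tested.

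The changes were small in every member. Over the 46 members the fold of shT7#1 over shCntrl lay between 0.692 for MCM2 and 1.46 for MCM10. The 95% interval of the fit lay within 2-fold either way for 46 of 46 members, against 89.8% of all genes tested. With 2 arrays a group, the smallest change called among all genes was 0.55 log2 units, above the 0.54 of MCM10, so no gene with a change as small as those of the members was called.

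**Figure D1:**
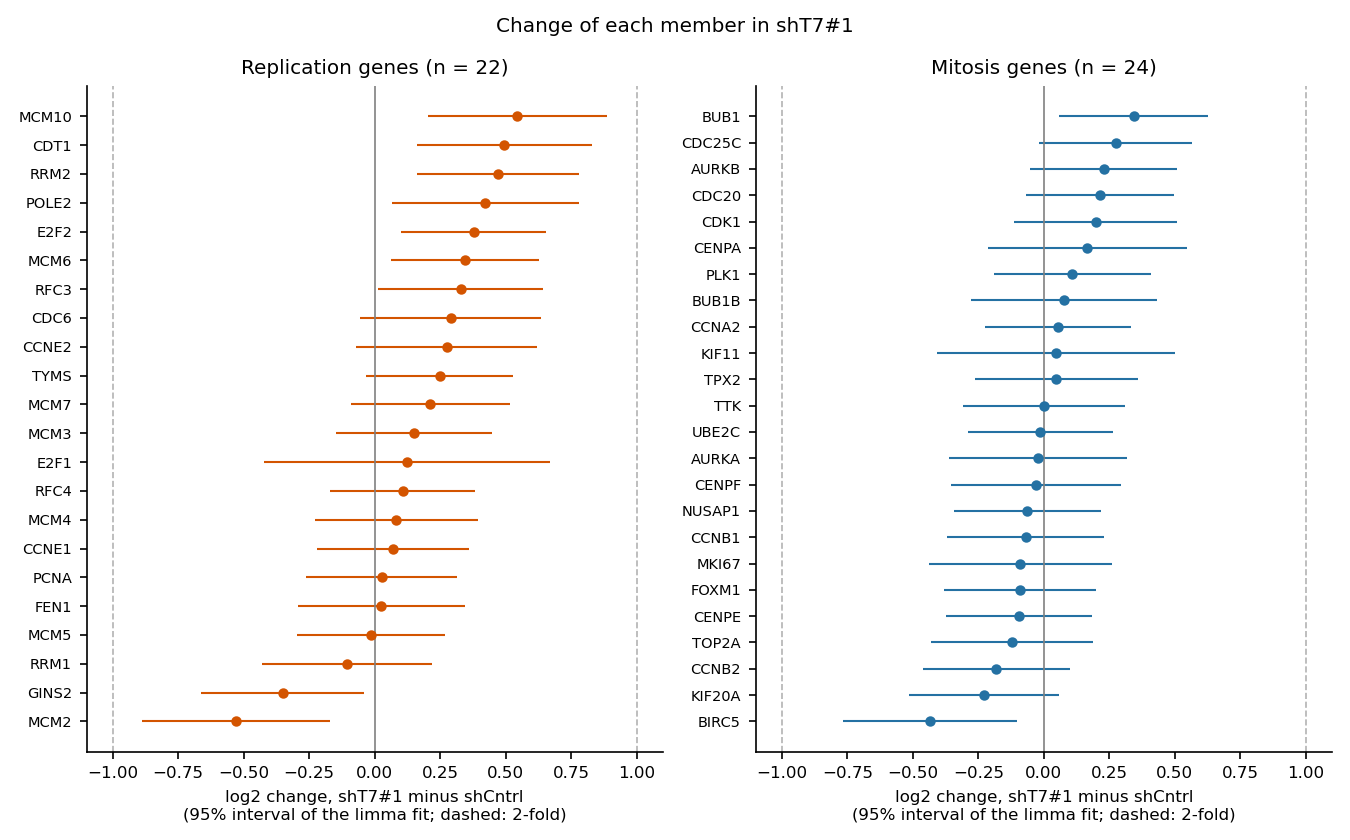
Log2 change in shT7#1 minus shCntrl (x axis) of the 22 tested replication genes (left) and the 24 tested mitosis genes (right), ordered by size. Points are fitted changes, bars their 95% intervals from limma (2 arrays a group), and dashed lines mark 2-fold; every bar stays inside the dashed lines, from -0.89 at MCM2 to 0.88 at MCM10.

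Taken apart, the replication and mitosis lists had different centres. The median log2 change of the 22 tested replication genes was 0.18, that of the 24 mitosis genes was -0.01, and that of all genes tested was 0.00. A change above 0 was found for 18 of 22 replication genes (81.8%) and 11 of 24 mitosis genes (45.8%), against 50% of all genes. Genes outside the lists did not show this gap, with 58.8% of 51 other replication genes and 57.4% of 68 other mitosis genes above 0. With the mean of passing probes, the counts of members above 0 were 16 of 22 and 14 of 24. The unadjusted limma p was under 0.05 in 9 replication genes (40.9%), 7 higher and 2 lower, and in 2 mitosis genes (8.33%), 1 higher and 1 lower, against 25.9% of all genes. The groups did not overlap in 29 of 46 members (63%), against 55.7% of all genes. Both shT7#1 arrays lay above both shCntrl arrays in 13 replication and 7 mitosis genes, a separation that 27.5% of all genes showed. Both lay below in 2 replication and 7 mitosis genes, against 28.2% of all genes. The difference between the lists was not tested, since the members were chosen by name and are not replicates of one another. The lists were also chosen with earlier results of these data known, so the gap between them is a description only.

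Array by array, the median deviation of the replication genes from their 4-array means was 0.07 and 0.08 log2 units in shT7#1 and -0.09 and -0.11 in shCntrl. For the mitosis genes it was -0.06 and 0.03 in shT7#1 and -0.03 and 0.01 in shCntrl. The replication medians of the groups stood apart, while the mitosis medians of the groups overlapped.

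**Figure D2:**
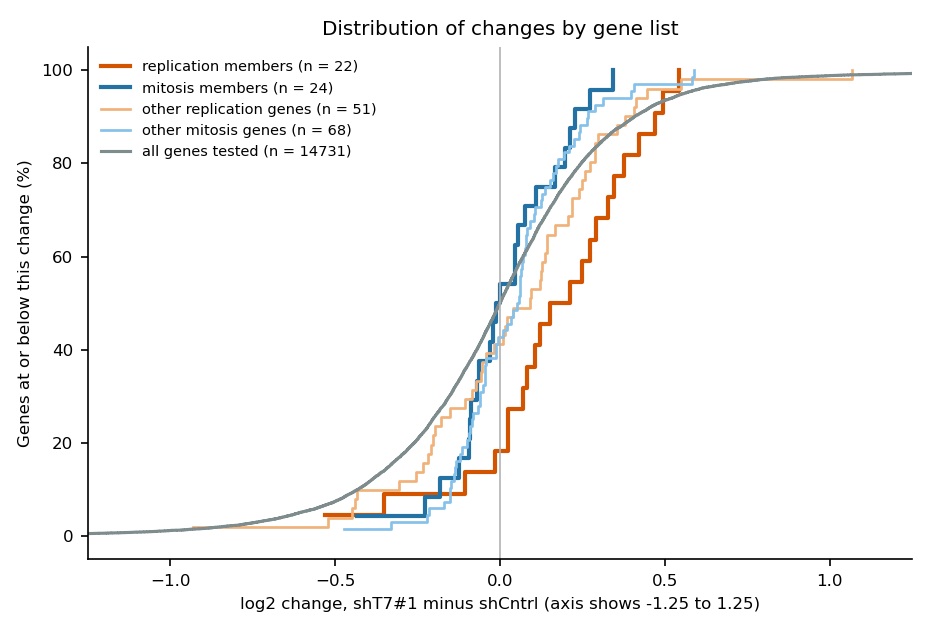
Share of genes at or below a given log2 change (shT7#1 minus shCntrl, x axis) for the replication members, the mitosis members, other replication genes, other mitosis genes and all 14731 genes tested. The curve of the 22 replication members crosses the middle at 0.18, right of all genes at 0.00, while the 24 mitosis members rise steeply around -0.01.

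The lists also differed in their promoter letters, which the choice of members did not use. Promoters in RefSeq (GRCh38.p14, 250 bases before to 50 after the gene start) matched 20 of 23 replication and 18 of 24 mitosis genes by symbol, and CCNE2, MCM4, MCM5, TPX2, TTK, UBE2C, AURKA, FOXM1 and BIRC5 were not matched. An E2F core (the letters TTCCCGC, the letters TTCGCGC, the letters TTGCCGC or the letters TTGGCGC, on either strand) was present in 80% of the replication and 27.8% of the mitosis promoters, against 19% of the 13816 promoters of genes tested. The CHR element known from mitotic promoters (TTTGAA, either strand) was present in 11 of 18 mitosis promoters (61.1%), among them MKI67, TOP2A, PLK1, CDC20, CCNB2 and CDK1. It was found in 1 of 20 replication promoters, that of RRM1, and in 10.6% of promoters of genes tested. A CCAAT box, bound by NF-Y, was found in 83.3% of mitosis and 55% of replication promoters, against 34.9%. The median change of replication genes was 0.21 log2 units with an E2F core and 0.27 without, and 0.18 with a CCAAT box and 0.25 without. With the motifs sought on the given strand alone it was 0.15 with and 0.29 without, for the E2F core and likewise for the CCAAT box. RRM1, with the only CHR element, lay at -0.11. None of these differences was tested.

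MCM10 and MCM2 had the highest and the lowest change among replication genes, BUB1 had the highest among mitosis genes, and CDK1 is 1 of 3 mitosis promoters that hold all the motifs (with CENPA and NUSAP1). Each runs 5′ to 3′ on the strand of its gene, with letters that match a motif on either strand in capitals.
MCM10, chr10:13161308-13161607, plus strand: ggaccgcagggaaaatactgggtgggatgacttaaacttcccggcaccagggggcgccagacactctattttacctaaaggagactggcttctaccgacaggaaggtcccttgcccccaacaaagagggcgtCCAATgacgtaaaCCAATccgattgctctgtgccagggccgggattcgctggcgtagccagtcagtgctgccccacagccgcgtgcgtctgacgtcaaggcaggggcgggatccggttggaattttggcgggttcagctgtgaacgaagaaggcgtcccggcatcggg
MCM2, chr3:127598161-127598460, plus strand: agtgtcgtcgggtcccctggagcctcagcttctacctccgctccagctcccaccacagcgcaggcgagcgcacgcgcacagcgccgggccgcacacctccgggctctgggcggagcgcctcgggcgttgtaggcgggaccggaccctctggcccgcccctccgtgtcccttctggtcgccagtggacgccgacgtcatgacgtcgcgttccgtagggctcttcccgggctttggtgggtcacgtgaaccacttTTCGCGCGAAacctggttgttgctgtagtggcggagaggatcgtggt
BUB1, chr2:110678014-110678313, minus strand: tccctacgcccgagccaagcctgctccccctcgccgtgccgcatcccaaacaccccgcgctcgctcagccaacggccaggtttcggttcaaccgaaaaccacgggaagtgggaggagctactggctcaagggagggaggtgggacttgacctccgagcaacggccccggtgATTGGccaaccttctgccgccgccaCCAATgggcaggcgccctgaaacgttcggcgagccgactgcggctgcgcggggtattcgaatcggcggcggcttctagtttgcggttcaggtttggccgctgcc
CDK1, chr10:60778081-60778380, plus strand: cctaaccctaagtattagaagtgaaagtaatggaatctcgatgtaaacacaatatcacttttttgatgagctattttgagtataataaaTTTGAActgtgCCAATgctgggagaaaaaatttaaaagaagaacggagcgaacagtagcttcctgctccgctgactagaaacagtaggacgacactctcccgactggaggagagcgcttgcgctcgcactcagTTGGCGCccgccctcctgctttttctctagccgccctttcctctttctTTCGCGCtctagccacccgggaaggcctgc
The MCM10 promoter held 2 CCAAT boxes and none of the E2F words searched, and that of MCM2 held an overlapping pair of E2F cores on opposite strands. E2F sites with other letters were not sought, so a promoter counted as without a core may still hold such a site. The BUB1 promoter held 2 CCAAT boxes, while CDK1 held 1 CHR, 1 CCAAT box and 2 E2F cores. Overlaps between motifs count for each of them, and a match is a run of letters, not a shown binding site.

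Among regulators of S-phase entry, E2F1 and E2F2 encode activating E2F factors, and CCNE1 and CCNE2 encode the cyclin E partners of CDK2. E2F2 had 8.58 and 8.60 log2 units in shT7#1, against 8.20 and 8.23 in shCntrl. Its groups did not overlap, and its change of 0.38 ± 0.11 log2 units (SE) had a limma adjusted p of 0.107. E2F1 had 6.90 and 6.40 log2 units in shT7#1 and 6.33 and 6.73 in shCntrl. Its groups overlapped, and it had the widest spread between replicates of all tested members (SD 0.35 in shT7#1 and 0.28 in shCntrl, n = 2 each). CCNE2 lay at 0.27 and CCNE1 at 0.07 log2 units.

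None of the 8 origin licensing genes passed. MCM2 to MCM7 encode the 6 subunits of 1 ring, and CDC6 and CDT1 load it. MCM2 had 8.51 and 8.33 log2 units in shT7#1, against 9.07 and 8.83 in shCntrl. Both shT7#1 arrays were below both shCntrl arrays, with a change of -0.53 ± 0.14 log2 units (SE) and a limma adjusted p of 0.0897. The other subunits lay between -0.01 for MCM5 and 0.34 for MCM6, with MCM7 at 0.21, MCM3 at 0.15 and MCM4 at 0.08. MCM6 had 11.60 and 11.68 log2 units in shT7#1 and 11.28 and 11.31 in shCntrl, without overlap.

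CDT1 had 8.81 and 8.85 log2 units in shT7#1, against 8.46 and 8.21 in shCntrl. Its change was 0.49 ± 0.14 log2 units (SE), a fold of 1.41, at an adjusted limma p of 0.0903 and no overlap of the groups. CDC6 lay at 0.29 log2 units, also without overlap. Of these 8 licensing genes, MCM2 was the only 1 with both shT7#1 arrays below both shCntrl arrays, and 5 had both above, separations that 28.2% and 27.5% of all genes showed.

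Origin firing genes lay at both ends. MCM10, which helps activate the loaded helicase, had 10.04 and 10.21 log2 units in shT7#1, against 9.47 and 9.69 in shCntrl. Both shT7#1 arrays were above both shCntrl arrays, and the change was 0.54 ± 0.14 log2 units (SE) at an adjusted limma p of 0.0778, the lowest of any member. Its second probe had 8.21 and 8.24 log2 units in shT7#1 and 7.62 and 7.60 in shCntrl, and a change of 0.62 ± 0.12 (SE) at an adjusted limma p of 0.0508 over all probes tested. MCM10 passed the threshold in 5 of the 14 alternative settings. Its adjusted limma p was 0.0448 where detection on all 4 arrays was required and 0.0482 with the mean of its probes. Those 5 settings called between 6.74% and 16.8% of all genes, against 6.48% in the main setting. GINS2, a subunit of the GINS complex that joins CDC45 and the MCM ring in the active helicase, had 10.13 and 10.05 log2 units in shT7#1, against 10.53 and 10.35 in shCntrl. Its groups did not overlap, and its change of -0.35 ± 0.13 log2 units (SE) had a limma adjusted p of 0.155.

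**Figure D3:**
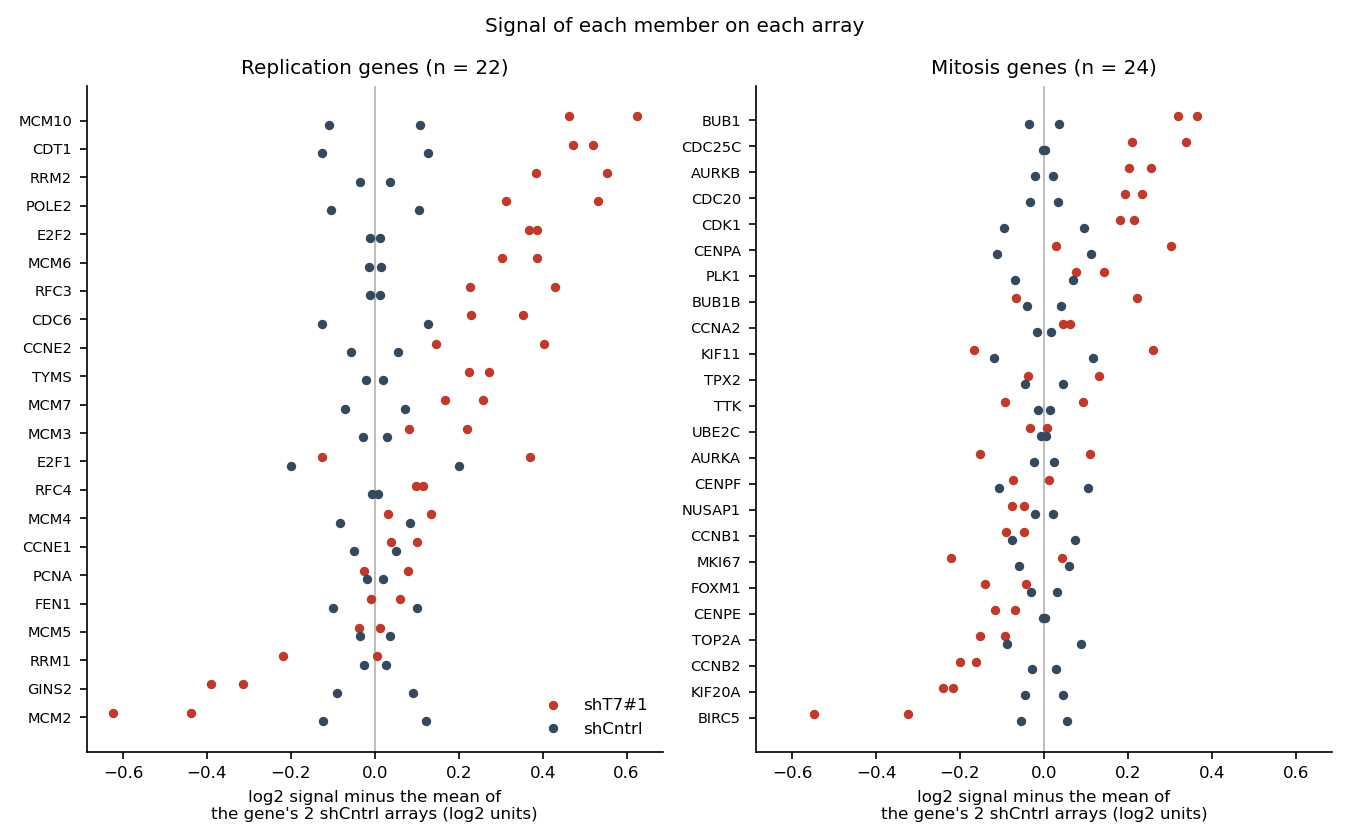
Signal of each tested member on each of the 4 arrays, as log2 signal minus the mean of that gene's 2 shCntrl arrays (x axis), for 22 replication genes (left) and 24 mitosis genes (right). Red points are the 2 shT7#1 arrays and dark points the 2 shCntrl arrays; the red points lie right of both dark points in 13 replication and 7 mitosis genes.

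Genes of the polymerase, the sliding clamp and the flap nuclease lay at or above 0. PCNA, the sliding clamp, had 11.76 and 11.87 log2 units in shT7#1 and 11.77 and 11.81 in shCntrl, so its groups overlapped around a change of 0.03 ± 0.12 log2 units (SE), with a 95% interval from -0.26 to 0.31. POLE2, a subunit of the leading-strand polymerase, had 10.30 and 10.52 log2 units in shT7#1, against 9.88 and 10.09 in shCntrl, a change of 0.42 at an adjusted limma p of 0.140. RFC4, a subunit of the clamp loader, lay at 0.11 and FEN1, the flap nuclease, at 0.02.

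RFC3, another clamp loader subunit, had probes that disagreed. Its brightest probe lay at 0.33 log2 units, with 8.83 and 8.63 in shT7#1 and 8.42 and 8.39 in shCntrl, and a second probe at 0.37. The remaining detected probe was above background on both shCntrl arrays, at 5.25 and 5.39 log2 units, and not well above background on either shT7#1 array, at 4.56 and 4.43. The detection floor lay at 4.92 to 4.98 log2 units, so only a bound can be given, and the signal was at least 1.28-fold lower in shT7#1 (adjusted limma p 0.0334 over all probes tested). The probe passed the detection filter through the shCntrl arrays alone, where it is high, so that p selects on the change itself and supports nothing about RFC3. With the mean of its 3 probes that passed the filter RFC3 lay at -0.04 log2 units. That value includes the shT7#1 signals below background, so it is no measured size.

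Of the genes that make deoxynucleotides, RRM1 and RRM2 encode the large and small subunits of ribonucleotide reductase, and TYMS encodes thymidylate synthase. RRM2, the subunit whose level follows S phase, had 9.69 and 9.52 log2 units in shT7#1, against 9.17 and 9.10 in shCntrl. Its groups did not overlap, and its change was 0.47 ± 0.12 log2 units (SE), at an adjusted limma p of 0.0847. RRM1 had 12.10 and 12.33 log2 units in shT7#1 and 12.35 and 12.29 in shCntrl, and its groups overlapped at a change of -0.11. TYMS lay at 0.25, with SDs of 0.03 in shT7#1 and 0.03 in shCntrl (n = 2 each) and no overlap.

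The proliferation marker MKI67 and the mitosis genes TOP2A and FOXM1 had changes smaller than their SE. MKI67, which encodes the Ki-67 antigen, had 6.25 and 6.51 log2 units in shT7#1 and 6.53 and 6.41 in shCntrl. Its groups overlapped, and the 95% interval of its change ran from -0.44 to 0.26 log2 units. TOP2A, the topoisomerase that untangles sister chromatids, had 12.36 and 12.42 log2 units in shT7#1 and 12.60 and 12.42 in shCntrl, a change of -0.12 ± 0.12 (SE). FOXM1, a transcription factor of the mitotic wave, had 9.11 and 9.01 log2 units in shT7#1, against 9.19 and 9.12 in shCntrl, a change of -0.09 ± 0.12 (SE). For TOP2A and FOXM1 both shT7#1 arrays were below both shCntrl arrays, by a narrow margin, a separation that 28.2% of all genes showed. None of these 3 passed, with limma adjusted p between 0.596 and 0.747.

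Cyclins and CDK1 did not share a direction. CDK1, the kinase that drives entry into mitosis, lay at 0.20 log2 units, at an adjusted limma p of 0.385, and its second probe lay at 0.16. CCNA2 lay at 0.05, CCNB1 at -0.07 and CCNB2 at -0.18 log2 units. CCNB2 had 11.40 and 11.37 log2 units in shT7#1, against 11.59 and 11.54 in shCntrl, without overlap. CDC25C, a phosphatase that activates CDK1, had 8.80 and 8.67 log2 units in shT7#1, against 8.46 and 8.46 in shCntrl. Its 3 detected probes lay at 0.27, 0.36 and 0.42 log2 units, and none passed.

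BIRC5 and BUB1 stood at the ends of the mitosis list. BIRC5, which encodes survivin of the chromosomal passenger complex, had 10.64 and 10.42 log2 units in shT7#1, against 11.02 and 10.91 in shCntrl. Its groups did not overlap, and the change was -0.43 ± 0.13 log2 units (SE) at an adjusted limma p of 0.115, while its second detected probe lay at -0.10. AURKB, the kinase of the same complex, had 10.67 and 10.72 log2 units in shT7#1, against 10.45 and 10.49 in shCntrl, and lay at 0.23 ± 0.11 (SE). The kinases PLK1 and AURKA, which build the spindle poles, lay at 0.11 and -0.02.

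BUB1, a kinase of the spindle checkpoint, had 11.15 and 11.19 log2 units in shT7#1, against 10.79 and 10.86 in shCntrl. Its groups did not overlap, and its change was 0.34 ± 0.11 log2 units (SE) at an adjusted limma p of 0.135. The other checkpoint genes were closer to 0, with BUB1B at 0.08 and TTK at 0.00 log2 units.

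The remaining mitosis genes act at the kinetochore, on the spindle or in the anaphase-promoting complex. CDC20, an activator of that complex, lay at 0.21 log2 units and UBE2C, its ubiquitin-conjugating enzyme, at -0.01. CENPA, the centromeric histone, lay at 0.17, and the kinetochore genes CENPE and CENPF at -0.09 and -0.03. Of the spindle motors, KIF20A had 11.03 and 11.01 log2 units in shT7#1, against 11.29 and 11.20 in shCntrl, a change of -0.23 ± 0.11 (SE) without overlap. KIF11, the motor that pushes spindle poles apart, lay at 0.05 and had the widest spread among mitosis genes (SD 0.30 in shT7#1 and 0.17 in shCntrl, n = 2 each). The spindle factors TPX2 and NUSAP1 lay at 0.05 and -0.06 log2 units.

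Other probes gave a check on the members measured more than once. Another detected probe existed for 19 members, 24 probes in all. Differences of over 0.25 log2 units from the brightest probe were found for RFC3, UBE2C, NUSAP1 and BIRC5. A second probe of UBE2C was at 0.03 and another at 0.37, and the second probe of NUSAP1 was at 0.21. Probes of a gene can bind different transcripts, and which transcripts these probes bind was not analysed here.

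**Figure D4:**
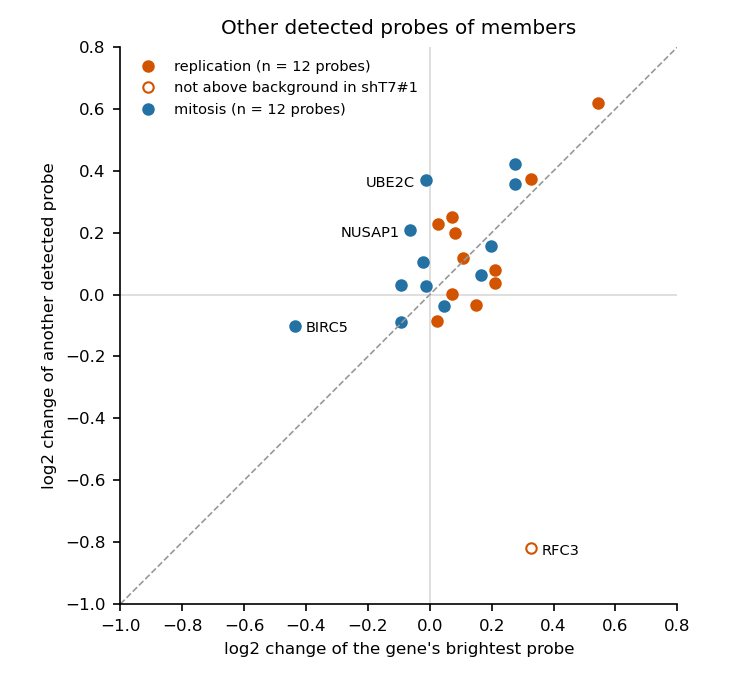
Log2 change (shT7#1 minus shCntrl) of the other detected probes of members (y axis) against that of the gene's brightest probe (x axis), for 12 replication and 12 mitosis probes; the dashed line marks equal changes. Genes more than 0.25 log2 units from the line are named. The open symbol is an RFC3 probe drawn from shT7#1 signals below background, so its position is no measured size.

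Genes of replication outside the list held both directions. Of 51 tested, limma called 1 higher and 1 lower and left 49 uncalled, where 2.93% of all genes were called higher and 3.55% lower. A count of 1 in 51 each way is no higher than those shares. An unadjusted limma p under 0.05 was found in 11 of them (21.6%), against 25.9% of all genes, and their median was 0.09 log2 units. TIPIN, a fork protection factor that binds TIMELESS, rose 2.10-fold, with 9.09 and 9.13 log2 units in shT7#1 against 8.05 and 8.03 in shCntrl, a change of 1.07 ± 0.11 (SE) and an adjusted p of 0.0102. POLD4, the small subunit of DNA polymerase delta, fell to 6.59 and 6.30 log2 units in shT7#1, against 7.50 and 7.24 in shCntrl, a change of -0.93 ± 0.16 (SE) at an adjusted limma p of 0.0342. POLD4 was not called without a detection filter (adjusted p 0.0513) or on the authors' processed values (0.0956). Both TIPIN and POLD4 lost their call when any 1 of the 4 arrays was left out, with limma adjusted p from 0.0643 to 0.0734 for TIPIN and from 0.0861 to 0.145 for POLD4.

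Members of the GINS complex were looked at after the values were seen, beside GINS2. GINS3 lay at -0.52 ± 0.13 and GINS4 at -0.45 ± 0.14 log2 units (SE), while their partner CDC45 lay at 0.41 ± 0.13. In each of them the groups did not overlap, as in 55.7% of all genes. None passed, with limma adjusted p of 0.0744, 0.113 and 0.115. GINS3 passed where detection on all 4 arrays was required, a setting that called 12.1% of all genes. All 3 passed without background correction, with an offset of 50 and with a variance trend on intensity. Those settings called 16.5%, 13.9% and 16.8% of all genes, against 6.48% in the main setting.

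Of 68 other mitosis genes tested, limma called 0 higher and 0 lower, and 5 had an unadjusted p under 0.05 (7.35%, against 25.9% of all genes). Their median was 0.05 log2 units, and they lay between -0.47 for ASPM, a spindle pole protein, and 0.59 for PIMREG. Of 20 cell cycle regulators of the E2F, RB, MuvB and NF-Y families, limma called 0 higher and 1 lower, where 2.93% of all genes were called higher and 3.55% lower, and the median was -0.03. A count of 1 in 20 is close to that share. The factor was E2F7, an atypical E2F that represses E2F targets, at 9.26 and 9.25 log2 units in shT7#1 against 9.95 and 10.04 in shCntrl. Its change was -0.74 ± 0.11 log2 units (SE), a fold of 0.599, at an adjusted limma p of 0.0260. Its adjusted p was 0.0764 on the authors' processed values and lay between 0.112 and 0.136 when any 1 array was left out.

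The authors' deposited table lists all 47 members, with folds of shT7#1 over shCntrl between 0.68 for MCM2 and 1.53 for MCM10. The same table gives MKI67 at 0.92, TOP2A at 0.92, PCNA at 1.00, BIRC5 at 0.83 and BUB1 at 1.27. Its values are given per gene symbol, so for genes with several probes they need not rest on the brightest probe used above. The median of the folds in the authors' deposited table was 1.11 for replication and 1.025 for mitosis genes.

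The count of called members depended on the variance model and the background step. With a variance trend on intensity and robust moderation, 9 of 22 replication and 2 of 24 mitosis genes passed, while 16.8% of all genes were called. The replication genes were CDT1, E2F2, MCM6, MCM10, POLE2, RRM2 and TYMS, higher, and GINS2 and MCM2, lower, and the mitosis genes were BUB1, higher, and BIRC5, lower. Without background correction the counts were 8 and 2, with 16.5% of all genes called. The replication median stayed between 0.12 and 0.20 log2 units over all 14 alternatives, while the mitosis median lay between -0.06 and 0.05 and changed sign among them.

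**Figure D5:**
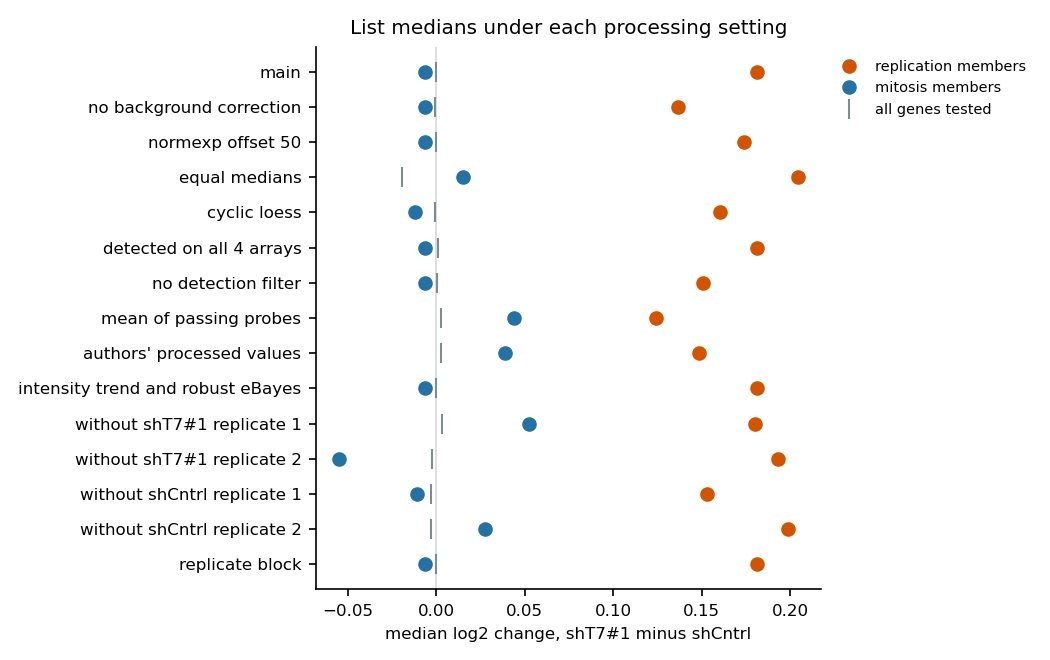
Median log2 change (shT7#1 minus shCntrl, x axis) of the replication members, the mitosis members and all genes tested under the main setting and each of 14 alternatives (y axis). The replication median lies between 0.12 and 0.20 under all of them, and the mitosis median lies on either side of 0.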

How the data were processed

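Total RNA of 2 shT7#1 and 2 shCntrl samples was measured on Illumina HumanHT-12 v4 arrays. Per the file headers, the deposited signal table held linear intensities before normalisation, with a detection p-value for each. The submitters' processing notes name GenomeStudio 2011.1. Per the file headers, the authors made log2 values with RMA in ArrayStar, 1 per gene symbol (column medians 3.02 to 3.03, used only as an alternative; how probes were joined is not given in the sources used here). Per the file headers, the authors' fold ratio is shT7#1 over shCntrl, from group means, and a gene below 2.5 on the log2 scale in each group was left out of that table.

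Here, intensities were corrected by normexp against the negative control level inferred from detection p-values (offset 16), quantile normalised and put on a log2 scale with limma 3.58.1 in R 4.3.3. Probes with a detection p under 0.05 on 2 or more of the 4 arrays were tested (20366 of 47323). A gene was represented by its brightest such probe (14731 genes). Symbols were updated through RefSeq genes of GRCh38.p14 (17761 current, 3297 updated, 10357 kept), and 23 probes with symbols turned into dates were left out. Groups came from the labels and were compared with lmFit and eBayes (2 residual and 3.65 prior degrees of freedom), two-sided, with Benjamini-Hochberg adjustment over all genes tested. Errors are standard errors of that fit or standard deviations over 2 arrays, and 4 arrays limit the precision of every value. The fit was tested on simulated data with planted changes larger than that of any member, so that test cannot show whether changes of member size would be called. An "at least" fold sets the brighter group's mean against the dimmer group's mean, in which signals under the detection floor (4.92 to 4.98 log2 units) were raised to it.

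The members and gene lists were chosen with earlier results of these data known. Members are all named; values per array are given for MKI67, PCNA, TOP2A, E2F1, FOXM1, the 3 highest and 3 lowest changes of each list, and a few others chosen after their values were seen (E2F2, MCM6, POLE2 and RFC3). GINS3, GINS4, CDC45, ASPM and PIMREG were also chosen after their values were seen and are given by their fitted change. Of other lists, genes that passed are named. Alternatives covered background, offset, normalisation, detection filter, probe rule, the authors' values, the variance model, each array left out and a replicate block.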

Additional observations from a re-analysis of the deposited data

How the results depend on the processing

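Neither list had a called member in the main setting. Replication counts were 8 without background correction, 4 with an offset of 50, 1 with detection on all 4 arrays, 1 with the mean of passing probes and 9 with an intensity trend and robust moderation, and 0 elsewhere. Mitosis counts were 2, 1 and 2 without background correction, with the offset of 50 and with the trend, and 0 elsewhere. The share of all genes called was 16.5%, 13.9%, 12.1%, 6.74% and 16.8% under those 5 settings, between 0.76% and 0.896% with an array left out, and 6.48% in the main setting. Other replication genes called numbered 9, 7 and 9 without background correction, with the offset of 50 and with the trend, against 2 in the main setting. They numbered 3 with detection on all 4 arrays (GINS3, POLD4 and TIPIN), 1 without a detection filter, 1 on the authors' values and 0 with any array left out. Other mitosis genes numbered 4, 3, 2 and 4 without background correction, with the offset of 50, with detection on all 4 arrays and with the trend. Regulators numbered 2 without background correction, 0 on the authors' values and 0 with any array left out.

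The replication median was 0.14 without background correction, 0.20 with equal medians, 0.16 with cyclic loess, 0.15 without a detection filter, 0.12 with the mean of probes and 0.15 on the authors' values, and 0.15 to 0.20 with an array left out. The mitosis median was 0.044 with the mean of probes and -0.055 to 0.052 with an array left out, the lowest without shT7#1 replicate 2 and the highest without shT7#1 replicate 1. RFC3, at 0.33 in the main setting, and the other members below, at -0.11 to 0.12 there, changed sign, and none of them was called in the main setting. With equal medians AURKA lay at 0.016, TTK at 0.0051 and UBE2C at 0.014. With the mean of probes FEN1 lay at -0.03, AURKA at 0.041, UBE2C at 0.13 and NUSAP1 at 0.072. RFC3 lay at -0.0401 there, a value that includes a probe not above background in shT7#1. On the authors' values FEN1 lay at -0.031, AURKA at 0.042, UBE2C at 0.035 and NUSAP1 at 0.074. With an array left out, E2F1 lay between -0.13 and 0.37, MCM5 between -0.049 and 0.022, FEN1 between -0.076 and 0.13, RRM1 between -0.22 and 0.0044, MKI67 between -0.22 and 0.042, TTK between -0.093 and 0.092, CENPF between -0.14 and 0.075, PCNA between -0.027 and 0.078, AURKA between -0.15 and 0.11, BUB1B between -0.068 and 0.22, UBE2C between -0.034 and 0.008, KIF11 between -0.17 and 0.26, TPX2 between -0.038 and 0.13, MCM4 between -0.0002 and 0.17 and CCNB1 between -0.14 and 0.0064. The cause of these shifts was not tested. With a replicate block, 0 replication and 0 mitosis members were called, the replication median was 0.18 and 8.28% of all genes were called. The labels number the arrays without saying what a number shares, and the replicate differences of the groups correlated at 0.12 over genes in 2 pairs, so the numbers were not taken as pairs. With motifs sought on the given strand alone, an E2F core was in 45% of replication and 22.2% of mitosis promoters, and the CHR element in 0 and 55.6%.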
